A study of Homo sapiens with 18 samples.

Results

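SLC7A11, the cystine/glutamate exchanger, was examined together with 9 genes of glutathione metabolism and of the oxidative stress response. They were its partner subunit SLC3A2, the glutathione synthesis genes GCLC, GCLM and GSS, the glutathione-using peroxidase GPX4, the glutathione-degrading enzyme CHAC1, the transcription factor gene NFE2L2, and the stress enzymes HMOX1 and NQO1. These 10 genes were chosen by name, as the rows of the count table whose Ensembl transcripts belong to them, out of 57736 rows. Each was a row of its own, and all 10 were among the 15318 genes kept by the low-count filter, so none was left out of a test.

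RNA was measured in PEO1 cells, a line from a human high-grade serous ovarian cancer in which p53 is mutant, as the title of the series has it. The cells had received an siRNA against p53 (sip53) or a control siRNA (siControl), and then 10 nM estradiol (E2) for 0, 2 or 8 h. All 6 groups, the 0 h groups included, had first spent 48 h in medium without phenol red and with charcoal-stripped serum, which removes steroid hormones. No sample without E2 was taken at 2 or 8 h. An effect of E2 therefore cannot be told apart from one of time or handling. Each group held 3 samples, 18 in all, of a single cell line, and the labels name a single siRNA condition against p53, so an effect of the p53 siRNA on another target cannot be told apart from that of p53 loss. The series title concerns p53 and estrogen receptor activity, and glutathione genes are not named in it.

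SLC7A11 and SLC3A2 form system xc-, which imports cystine in exchange for glutamate. Cystine is reduced to cysteine, the limiting building block of glutathione: the GCLC and GCLM subunits join glutamate to cysteine, and GSS adds glycine. GPX4 uses glutathione to reduce lipid hydroperoxides, the process whose failure leads to ferroptosis, whereas CHAC1 breaks glutathione down in the cytosol. NFE2L2 encodes NRF2, which KEAP1 holds at low levels by degradation and which activates SLC7A11, GCLC, GCLM, HMOX1 and NQO1 through antioxidant response elements. ATF4, the effector of the amino acid and unfolded protein stress response, activates SLC7A11, SLC3A2 and CHAC1, and p53 is known as a repressor of SLC7A11 where it is wild type.

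Promoter sequences are shown for SLC3A2, GCLM and CHAC1, because these were the 3 genes with a match to an NRF2-type or ATF4-type motif. They were taken from RefSeq on build GRCh38.p14 and run from 250 bases before to 50 bases after a transcription start, on the gene's strand. RefSeq gave 12 such windows for 7 of the 10 genes. The bases after the start matched a GENCODE v29 transcript of the gene in 11 of them, and not in the first NFE2L2 window, whose strand is as the RefSeq table gives it. No window was at hand for SLC7A11, GSS or HMOX1. Capitals mark the matched letters.
SLC3A2, the last of its 3 starts, chr11:62881449-62881748 (+): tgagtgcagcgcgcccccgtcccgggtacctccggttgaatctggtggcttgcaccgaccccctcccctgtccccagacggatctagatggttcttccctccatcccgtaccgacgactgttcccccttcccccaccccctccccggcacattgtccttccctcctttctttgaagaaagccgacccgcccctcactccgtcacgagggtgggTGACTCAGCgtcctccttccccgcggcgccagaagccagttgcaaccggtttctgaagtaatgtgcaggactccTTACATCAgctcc
GCLM, chr1:93909381-93909680 (−): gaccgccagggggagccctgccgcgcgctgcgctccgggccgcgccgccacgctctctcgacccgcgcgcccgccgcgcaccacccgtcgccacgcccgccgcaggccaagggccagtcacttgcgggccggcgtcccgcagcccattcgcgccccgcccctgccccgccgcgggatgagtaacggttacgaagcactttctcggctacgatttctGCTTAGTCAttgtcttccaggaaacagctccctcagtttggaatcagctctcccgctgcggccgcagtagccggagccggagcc
CHAC1, chr15:40953221-40953520 (+): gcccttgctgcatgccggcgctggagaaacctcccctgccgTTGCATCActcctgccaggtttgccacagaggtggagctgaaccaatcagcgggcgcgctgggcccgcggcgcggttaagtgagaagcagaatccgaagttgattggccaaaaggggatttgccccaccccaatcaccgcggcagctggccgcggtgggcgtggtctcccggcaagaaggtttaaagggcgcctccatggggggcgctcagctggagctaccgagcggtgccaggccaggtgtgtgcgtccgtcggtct
The antioxidant response element core was searched as TGACNNNGC, the C/EBP-ATF element core to which ATF4 dimers bind as TGATGNAA, and the estrogen response element as GGTCA and TGACC with 3 bases between them, each on both strands. In SLC3A2 the antioxidant match TGACTCAGC began 37 bases before the start on the gene's strand and holds the letters of an AP-1 site, TGACTCA. The SLC3A2 window also held a C/EBP-ATF match on the opposite strand, beginning at base 38 of the transcribed part. GCLM had an antioxidant match on the opposite strand beginning 34 bases before its start, and CHAC1 a C/EBP-ATF match on the opposite strand beginning 209 bases before its start. Of 35116 RefSeq promoters of the same length, 13.3% held the antioxidant core, 3.62% the C/EBP-ATF core and 0.057% the estrogen response element. Each of the first 2 motifs was found in 2 of the 12 windows, and the estrogen response element in 0 of 12. These are matches of letters in short windows, and no binding was measured.

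On GRCh38 with the GENCODE v29 annotation, SLC7A11 (ENSG00000151012) lies on chr4:138164097-138242349 on the minus strand. SLC3A2 (ENSG00000168003) lies on chr11:62856102-62888875 and CHAC1 (ENSG00000128965) on chr15:40952962-40956519, both on the plus strand. NFE2L2 (ENSG00000116044) lies on chr2:177227595-177392697 on the minus strand. The longest annotated SLC7A11 transcript is 9645 bases with 35.4% G and C, against 2222 bases with 57.4% for SLC3A2 and 1849 bases with 62.6% for CHAC1. The NFE2L2 locus overlaps AGPS on the opposite strand, which had 3505 counts over all samples against 20162 for NFE2L2. The antisense gene SLC7A11-AS1 had 0 counts against 26807 for SLC7A11. No source used here says whether the authors' counting was by strand.

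Total counts per sample were 9225939 to 11307199 in sip53 samples and 7542457 to 10132570 in siControl samples. The replicate 2 library of siControl at 0 h was the shallowest and lay farthest from its group mean, at a root mean square of 0.403 on the log2 scale. Called results of the 10 genes that rest on it are given with and without it. As an indirect check of the knockdown, the known p53 target genes RPS27L and CDKN1A were lower in sip53 cells at every time. Whether the mutant p53 of these cells drives them was not tested. At 0, 2 and 8 h the log2 fold changes were -1.81, -2.30 and -2.21 for RPS27L and -0.71, -1.22 and -0.98 for CDKN1A, with non-overlapping groups. The CDKN1A call at 0 h was lost without the shallow siControl library, without sip53 replicate 2, and in a fit of only the groups compared. Of 14 epithelial and ovarian carcinoma markers, 12 averaged over 1 CPM (counts scaled to the library's total), among them PAX8, WT1, MUC16, EPCAM and KRT7. SOX17 had 0 counts in every sample, and FOLR1 stayed at or under 0.19 CPM. The summed level of the epithelial and ovarian carcinoma markers was 7150 to 8500 CPM in sip53 samples and 5810 to 6480 CPM in siControl samples. The fibroblast markers COL1A2, COL3A1, DCN and LUM and the leukocyte markers PTPRC and CD3E had 0 counts in every sample, and the summed lists stayed at or under 13.3 CPM for fibroblasts and 19.9 CPM for leukocytes in both arms. The fibroblast marker COL1A1 was present in every sample, at 4.64 to 13.3 CPM. So were the leukocyte markers CD14, at 4.01 to 9.12 CPM, and CD68, at 5.01 to 11.5 CPM. No endothelial marker averaged over 1 CPM, and CDH5 had the highest single value at 1.04 CPM. The part of the higher epithelial marker sum in the results below was not tested.

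SLC7A11 was lower in sip53 cells than in siControl cells at all 3 times. In sip53 cells it stood at 104, 117 and 101 CPM at 0 h, at 107, 125 and 114 CPM at 2 h and at 114, 120 and 107 CPM at 8 h of E2. In siControl cells the same times gave 176, 173 and 176 CPM, then 192, 207 and 200 CPM, then 228, 247 and 247 CPM. Every sip53 sample lay below every siControl sample, whatever the time. The group means were 107 ± 8.54, 115 ± 8.93 and 114 ± 6.46 CPM at 0, 2 and 8 h in sip53 cells, and 175 ± 1.77, 200 ± 7.21 and 241 ± 11 CPM in siControl cells (SD, n = 3 each). At 2 h, SLC7A11 in sip53 cells was 0.576 times its siControl level, a log2 fold change of -0.80 ± 0.09 (SE, adjusted p = 1.45e-05, edgeR quasi-likelihood test with Benjamini-Hochberg adjustment over all genes). The corresponding 95% intervals were -0.89 to -0.52 at 0 h, -0.98 to -0.61 at 2 h and -1.26 to -0.89 at 8 h. At 0 h the log2 fold change was -0.71 with all libraries and -0.70 without the shallow siControl library. In bulk RNA, a lower share of cells with the transcript and less transcript per cell cannot be told apart.

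Across all genes, the knockdown fold change followed transcript length and base composition, and SLC7A11 has a long transcript of low G and C content. That trend alone gave -0.22, -0.30 and -0.26 on the log2 scale for a gene of the length and composition of SLC7A11 at 0, 2 and 8 h. With the trend removed, a step added after the data had been seen, SLC7A11 was lower in sip53 cells by log2 fold changes of -0.49, -0.50 and -0.82, and the edgeR adjusted p-values were 0.00321, 0.00226 and 1.4e-05. The call at each time was kept in every alternative that was run.

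**Figure D1:**
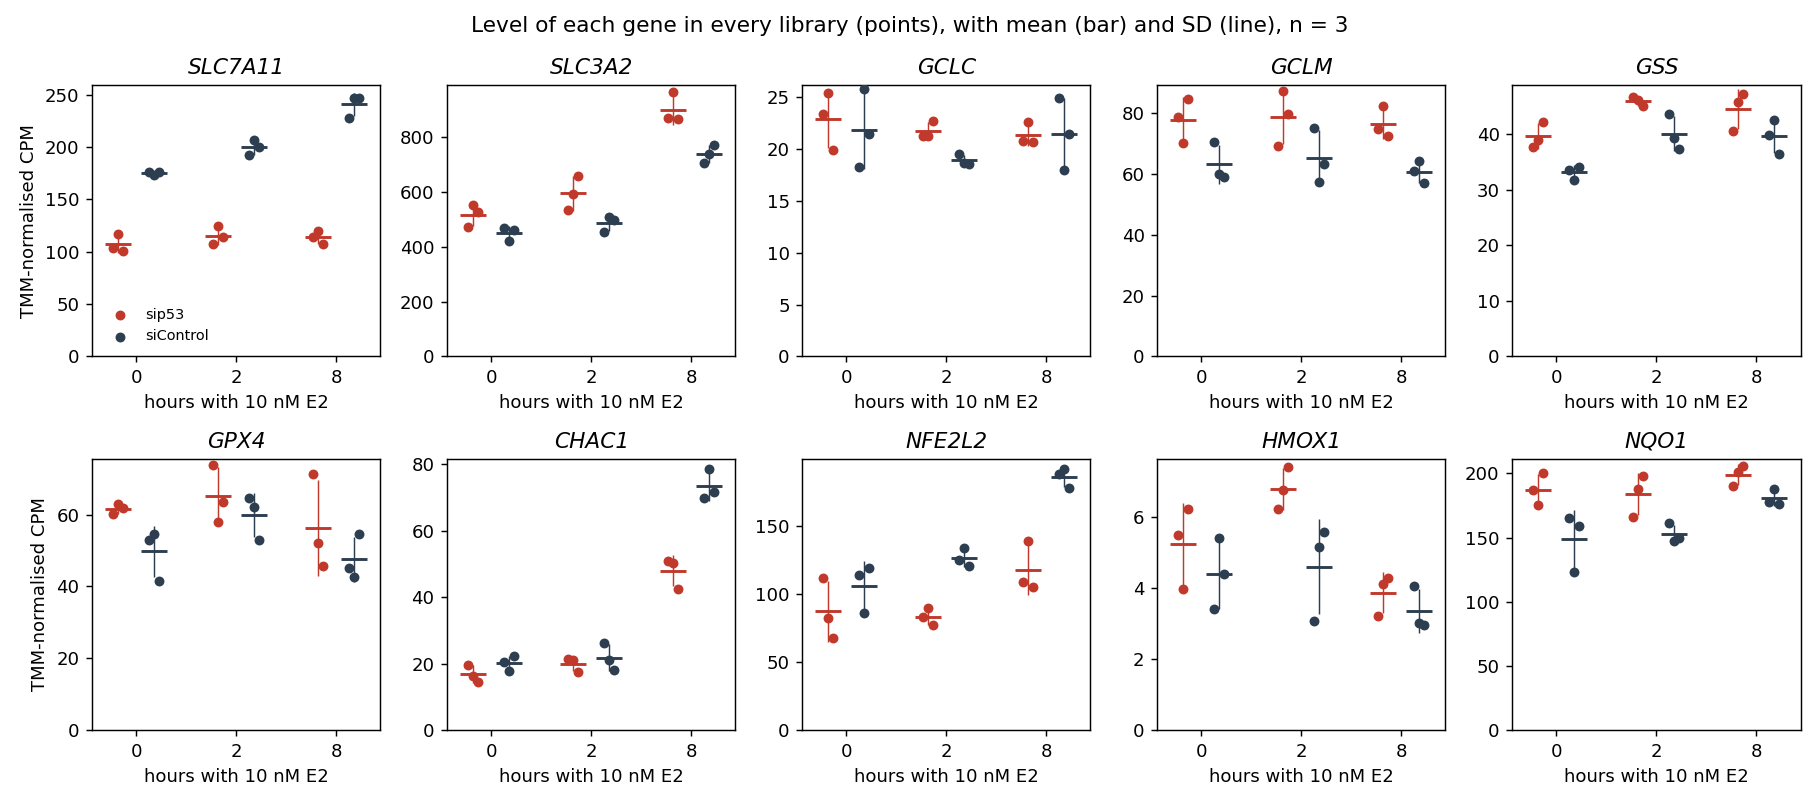
TMM-normalised CPM (y axes, each from 0) of the 10 genes in every library at 0, 2 and 8 h with 10 nM E2 (x axes). Red points are sip53 and dark points siControl samples, bars are means and lines SD, n = 3. SLC7A11 points of sip53 cells all lie at or below 125 CPM and those of siControl cells at or above 173 CPM.

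SLC3A2, the chaperone subunit that carries SLC7A11 to the plasma membrane and also pairs with other amino acid transporters, did not share the lower level of SLC7A11. SLC3A2 measured 471, 553 and 528 CPM at 0 h, 534, 593 and 659 CPM at 2 h and 872, 964 and 867 CPM at 8 h in sip53 cells. It measured 469, 421 and 460 CPM at 0 h, 455, 509 and 498 CPM at 2 h and 706, 740 and 773 CPM at 8 h in siControl cells. At each time the sip53 samples lay above the siControl samples, at 0 h by a narrow margin between 471 and 469 CPM. The log2 fold changes of sip53 over siControl were 0.20 ± 0.09, 0.29 ± 0.09 and 0.28 ± 0.09 (SE), with edgeR adjusted p-values of 0.175, 0.0432 and 0.055, so in this fit SLC3A2 passed the 0.05 threshold at 2 h and not at 0 or 8 h. That call was lost in 5 of 6 fits that left out 1 library, all but the one without sip53 replicate 1, and fell to a log2 fold change of 0.13 (adjusted p = 0.376) with the length and composition trend removed. It was also lost without the low-count filter (edgeR adjusted p = 0.0552). At 8 h SLC3A2 passed with DESeq2 (adjusted p = 0.0156). It also passed at 8 h in edgeR with upper-quartile scaling (0.0366), the replicate number as a block (0.0437) or only the groups compared (0.0438).

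Since the 2 subunits were counted in the same library, their ratio needs no scaling between libraries. Per 100 SLC3A2 counts, sip53 cells had 22.1, 21.2 and 19.0 SLC7A11 counts at 0 h, 20, 21 and 17.3 at 2 h and 13.1, 12.5 and 12.4 at 8 h. The siControl cells had 37.6, 41.1 and 38.3 at 0 h, 42.2, 40.6 and 40.1 at 2 h and 32.3, 33.4 and 32.0 at 8 h. The arms did not overlap at any time, and within each arm the 8 h samples lay below the 0 h and 2 h samples. Means at 8 h were 12.7 ± 0.379 in sip53 cells and 32.6 ± 0.737 in siControl cells (SD, n = 3 each). The ratio describes a shift between arms and times. It is not a ratio of transcript copies, and no test was run on it. The length and composition trend was not removed from it and acts on the 2 subunits in opposite directions. At 0, 2 and 8 h that trend alone gave log2 values of -0.22, -0.30 and -0.26 for SLC7A11. For SLC3A2 it gave 0.12, 0.15 and 0.14, so part of the gap between arms goes with the trend.

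**Figure D2:**
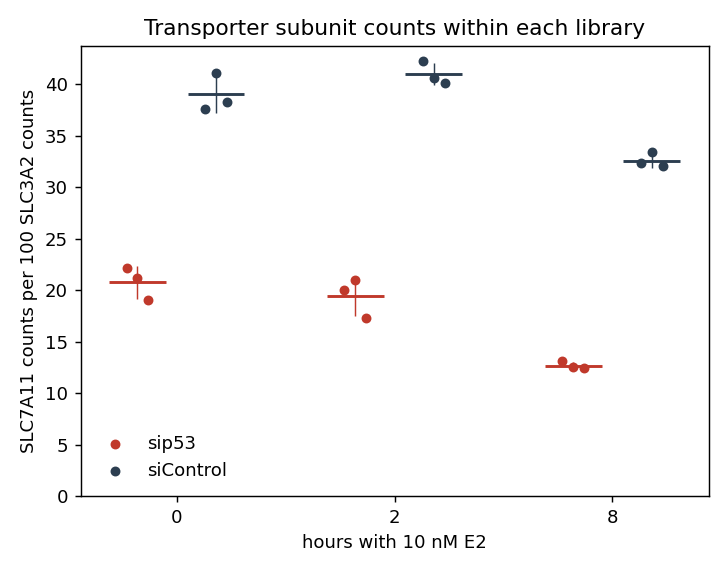
SLC7A11 counts per 100 SLC3A2 counts of the same library (y axis, from 0) at 0, 2 and 8 h with 10 nM E2 (x axis). Red points are sip53 and dark points siControl samples, bars are means and lines SD, n = 3. The sip53 points lie between 12.4 and 22.1 and the siControl points between 32.0 and 42.2.

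None of the 3 glutathione synthesis genes passed the test between sip53 and siControl cells at any time in the edgeR fit of all 18 samples. GCLM, the modifier subunit of glutamate-cysteine ligase, measured 75, 82.4 and 72.5 CPM in sip53 cells and 60.9, 64.3 and 57.2 CPM in siControl cells at 8 h. At that time the GCLM groups did not overlap, and the log2 fold change was 0.33 ± 0.12 (SE, edgeR adjusted p = 0.0781), after 0.30 (0.109) at 0 h and 0.27 (0.146) at 2 h, where they overlapped. GCLM passed at all 3 times once the length and composition trend was removed (log2 fold changes 0.43, 0.46 and 0.48, edgeR adjusted p-values 0.0278, 0.015 and 0.0166). At 8 h GCLM also passed with DESeq2 (0.34, adjusted p = 0.0465) and in edgeR with upper-quartile scaling (0.36, adjusted p = 0.0457). At 0 h it passed in edgeR without siControl replicate 1 (0.40, adjusted p = 0.0496). GCLC, the catalytic subunit, averaged 21.4 ± 1.08 CPM in sip53 cells and 21.5 ± 3.44 CPM in siControl cells at 8 h (SD, n = 3 each), with a 95% interval of the log2 fold change from -0.31 to 0.30. GSS, glutathione synthetase, measured 37.7, 39 and 42.3 CPM in sip53 cells and 33.6, 31.7 and 34.2 CPM in siControl cells at 0 h. The GSS groups did not overlap at 0 or 2 h, and its log2 fold changes of 0.26, 0.20 and 0.17 had edgeR adjusted p-values of 0.14, 0.249 and 0.345.

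GPX4, the peroxidase that removes lipid hydroperoxides, measured 60.1, 63 and 61.7 CPM in sip53 cells and 53, 54.7 and 41.5 CPM in siControl cells at 0 h. These groups did not overlap, whereas those at 2 and 8 h did. The GPX4 log2 fold changes were 0.31 ± 0.15, 0.12 ± 0.15 and 0.25 ± 0.15 (SE) at 0, 2 and 8 h, and none passed the test (edgeR adjusted p-values 0.198, 0.659 and 0.326). At 8 h the sip53 samples spread widely, at 71.3, 52 and 45.6 CPM. With the length and composition trend removed the 3 GPX4 values were 0.16, -0.09 and 0.05.

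CHAC1, which cleaves glutathione, was lower in sip53 cells at 8 h and overlapped between arms before that. At 0 h CHAC1 measured 19.7, 16.3 and 14.5 CPM in sip53 cells and 20.5, 17.8 and 22.2 CPM in siControl cells. At 8 h it measured 51, 50.2 and 42.5 CPM in sip53 cells and 69.9, 78.4 and 71.6 CPM in siControl cells. At 8 h all 3 sip53 samples lay below all 3 siControl samples. The log2 fold changes were -0.26 ± 0.15 at 0 h, -0.13 ± 0.15 at 2 h and -0.61 ± 0.14 at 8 h (SE), with edgeR adjusted p-values of 0.29, 0.644 and 0.00784. Without sip53 replicate 3, the lowest of the 8 h samples, the CHAC1 call at 8 h was lost (log2 fold change -0.52, adjusted p = 0.0724).

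NFE2L2, the gene of NRF2, was lower in sip53 cells at 2 and 8 h. NFE2L2 measured 112, 82.5 and 68.1 CPM at 0 h, 83.4, 89.6 and 77.6 CPM at 2 h and 109, 139 and 105 CPM at 8 h in sip53 cells. In siControl cells it measured 114, 86.1 and 119 CPM at 0 h, 125, 134 and 121 CPM at 2 h and 188, 192 and 178 CPM at 8 h. The arms overlapped at 0 h and were apart at 2 and 8 h. The NFE2L2 log2 fold changes were -0.29 ± 0.15, -0.60 ± 0.15 and -0.66 ± 0.14 (SE), with edgeR adjusted p-values of 0.23, 0.0101 and 0.00678. The 0 h sip53 samples were spread from 68.1 to 112 CPM, and without replicate 1, the highest, the 0 h value was -0.49 (adjusted p = 0.025). The call at 2 h was lost without sip53 replicate 3 or siControl replicate 2, and that at 8 h without sip53 replicate 3, with adjusted p-values up to 0.0604 and 0.0584.

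NQO1 and HMOX1, both textbook NRF2 targets, were not called lower in sip53 cells at any time. NQO1, a quinone reductase, measured 187, 175 and 200 CPM in sip53 cells and 165, 123 and 159 CPM in siControl cells at 0 h. It measured 166, 188 and 198 CPM in sip53 cells and 161, 147 and 150 CPM in siControl cells at 2 h, and at 8 h 190, 201 and 206 CPM in sip53 cells against 178, 188 and 176 CPM in siControl cells. The sip53 samples lay above the siControl samples at every time. The NQO1 log2 fold changes were 0.33 ± 0.10, 0.27 ± 0.10 and 0.14 ± 0.10 (SE), and only that at 0 h passed the test (edgeR adjusted p-values 0.0478, 0.0939 and 0.446). The 0 h call was lost in 5 of 6 fits that left out 1 library, the shallow siControl library among them (log2 fold change 0.22, adjusted p = 0.193). At 2 h NQO1 passed with DESeq2 (0.28, adjusted p = 0.046). It also passed at 2 h in edgeR with the length and composition trend removed (0.29, adjusted p = 0.0495). HMOX1, the heme-degrading enzyme, had few reads, with 27 to 82 counts per sample and 2.97 to 7.4 CPM. Its log2 fold changes of 0.26, 0.56 and 0.21 had standard errors of 0.28, 0.28 and 0.29, and none passed the test.

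By the edgeR test, 1 gene of the 10 was higher (NQO1) and 1 lower (SLC7A11) in sip53 cells at 0 h, where 9.12% of all 15318 genes were called, 3.98% higher and 5.14% lower. At 2 h 1 was higher (SLC3A2) and 2 were lower (SLC7A11 and NFE2L2), against 12.2% of all genes called, 4.42% higher and 7.79% lower. At 8 h 0 were higher and 3 lower (SLC7A11, CHAC1 and NFE2L2), against 8.96% of all genes called, 2.81% higher and 6.14% lower. Of the 8 h calls over all genes, 31.4% were higher in sip53 cells, and 42.4% with upper-quartile scaling. The groups did not overlap for 5, 7 and 6 of the 10 genes at 0, 2 and 8 h. Of these, 4, 5 and 3 had the sip53 samples above, against 12.6%, 15.1% and 14.6% of all genes. The other 1, 2 and 3 had the sip53 samples below, against 11.9%, 18.1% and 14.9% of all genes. The median log2 fold change of the 10 was 0.23, 0.20 and 0.15, beside 0.00, 0.00 and 0.01 over all genes tested. These medians, and those of the lists below, were taken without removing the length and composition trend. At 8 h that trend alone ran from -0.26 for SLC7A11 to 0.19 for GPX4 and CHAC1 among the 10 genes. The 3 knockdown comparisons use separate libraries.

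**Figure D3:**
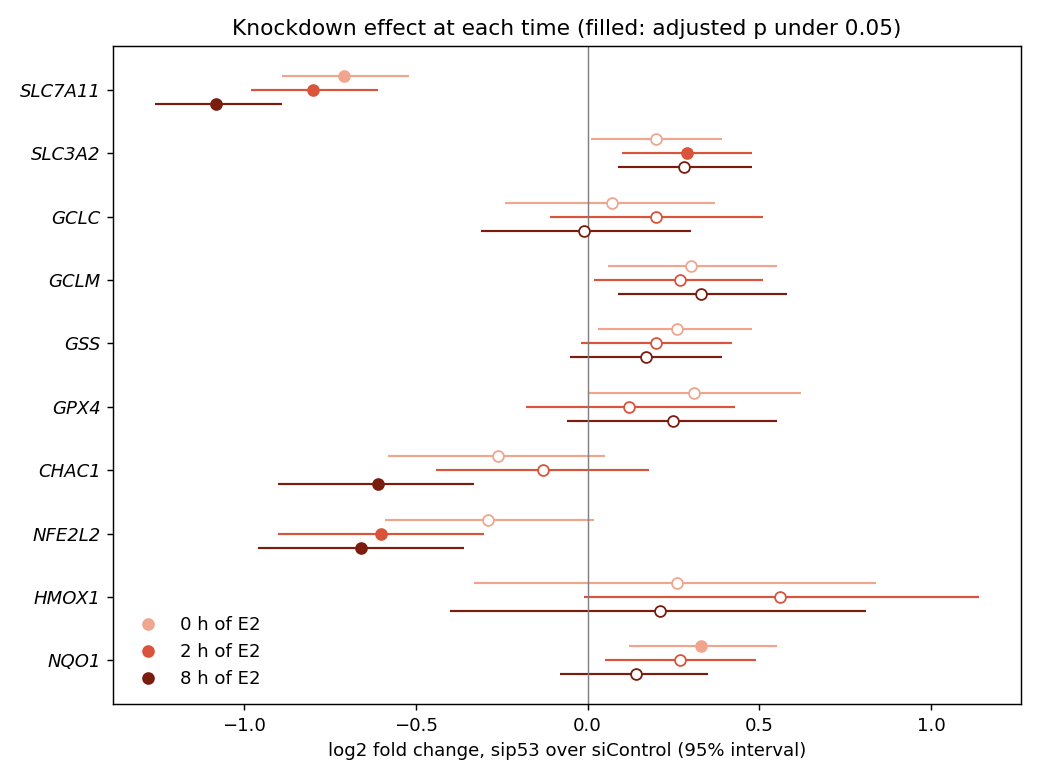
Log2 fold change of sip53 over siControl (x axis, points with 95% intervals) for the 10 genes (rows) at 0, 2 and 8 h of E2, from light to dark. Filled points passed an adjusted p of 0.05. SLC7A11 lies to the left of 0 at every time, and most other genes lie within 0.35 of 0 except CHAC1, NFE2L2 and HMOX1.

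After 8 h of E2, 2 of the 10 genes were higher than at 0 h in sip53 cells, namely CHAC1 and SLC3A2, and 4 were higher in siControl cells, namely CHAC1, NFE2L2, SLC3A2 and SLC7A11. None was lower in either arm. Of all genes, 2.74% were called in sip53 cells (1.55% higher and 1.18% lower) and 2.6% in siControl cells (1.78% higher and 0.823% lower). CHAC1 had the highest fold change of the 10, with 8 h levels of 47.9 ± 4.72 CPM in sip53 cells and 73.3 ± 4.5 CPM in siControl cells, over 0 h levels of 16.8 ± 2.62 CPM in sip53 cells and 20.2 ± 2.22 CPM in siControl cells (SD, n = 3 each). The CHAC1 log2 fold change of 8 h over 0 h was 1.51 ± 0.15 in sip53 cells (SE, edgeR adjusted p = 8.5e-07) and 1.86 ± 0.15 in siControl cells (7.7e-08). SLC3A2 was higher at 8 h by log2 fold changes of 0.80 ± 0.09 in sip53 cells (8.44e-06) and 0.72 ± 0.09 in siControl cells (4.82e-05).

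SLC7A11 and NFE2L2 did not pass the test of 8 h against 0 h of E2 in sip53 cells and passed it in siControl cells. For SLC7A11, the log2 fold change of 8 h over 0 h was 0.09 ± 0.09 in sip53 cells (SE, 95% interval -0.10 to 0.27, edgeR adjusted p = 0.717) and 0.46 ± 0.09 in siControl cells (95% interval 0.27 to 0.64, adjusted p = 0.00491). All 3 siControl samples at 8 h were above all 3 at 0 h, while the sip53 samples overlapped. For NFE2L2 the values were 0.43 ± 0.15 in sip53 cells (adjusted p = 0.142) and 0.80 ± 0.15 in siControl cells (adjusted p = 0.00277). Without the spread-out sip53 0 h replicate 1, the NFE2L2 value in sip53 cells was 0.64 and passed the test (adjusted p = 0.0165). With all libraries and no low-count filter, NFE2L2 in sip53 cells also passed (0.43, edgeR adjusted p = 0.0149). Without the shallow siControl 0 h library, the siControl values were 0.45 for SLC7A11, 0.67 for NFE2L2, 0.67 for SLC3A2 and 1.78 for CHAC1, and all 4 still passed. A fit of only the 2 groups compared put SLC7A11 in siControl cells at an adjusted p of 0.0574.

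The difference between the arms in the 8 h response did not pass for any of the 15318 genes. It was -0.37 ± 0.13 for SLC7A11 (SE, 95% interval -0.63 to -0.11), -0.38 ± 0.21 for NFE2L2 (-0.80 to 0.05), -0.35 ± 0.21 for CHAC1 (-0.78 to 0.08) and 0.08 ± 0.13 for SLC3A2 (-0.19 to 0.36), all with an edgeR adjusted p of 0.999. Over all genes 0 of 15318 were called by edgeR at 8 h (0% called), with 583 at an unadjusted p under 0.05. DESeq2 called 2, and edgeR without the low-count filter 54. At 2 h edgeR also called 0 (0% called), with 451 at an unadjusted p under 0.05. DESeq2 called 1, and edgeR without the filter 36. None of the 10 genes passed in any alternative. For SLC7A11 and NFE2L2, a call in 1 arm only is thus not shown to be a different response.

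At 2 h of E2, 0 of the 10 genes were called against 0 h in either arm by edgeR, where 0.307% of all genes were called in sip53 cells and 0.228% in siControl cells. The highest 2 h value was a log2 fold change of 0.38 ± 0.27 (SE) for HMOX1 in sip53 cells. Between 2 and 8 h, CHAC1 and SLC3A2 were higher in both arms, and no other gene of the 10 passed in the edgeR fit of all 18 samples. Of all genes, 1.38% were called in sip53 cells (0.823% higher) and 1.02% in siControl cells (0.646% higher). CHAC1 then had log2 fold changes of 1.26 ± 0.14 in sip53 cells and 1.75 ± 0.14 in siControl cells (SE, edgeR adjusted p-values 2.93e-05 and 1.5e-07). SLC3A2 had 0.60 ± 0.09 in both arms (adjusted p-values 0.00074 and 0.000705). NFE2L2 had 0.49 ± 0.15 in sip53 and 0.56 ± 0.14 in siControl cells (edgeR adjusted p-values 0.11 and 0.0677), with non-overlapping samples. It passed in both arms with DESeq2 (0.04 and 0.0134), without the low-count filter, and with only the groups compared. In siControl cells NFE2L2 also passed with the length and composition trend removed, and SLC7A11 passed with DESeq2 (adjusted p = 0.0458). The comparisons with 0 h and with 2 h share the 8 h samples. For the order of SLC7A11 levels, the sip53 groups at 0, 8 and 2 h came lowest and were not told apart from each other (edgeR adjusted p of at least 0.717), followed by siControl at 0, 2 and 8 h. Neighbours in the siControl order did not pass the edgeR test of all 18 samples (adjusted p = 0.431 for 2 h against 0 h and 0.166 for 8 h against 2 h), although their samples did not overlap.

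**Figure D4:**
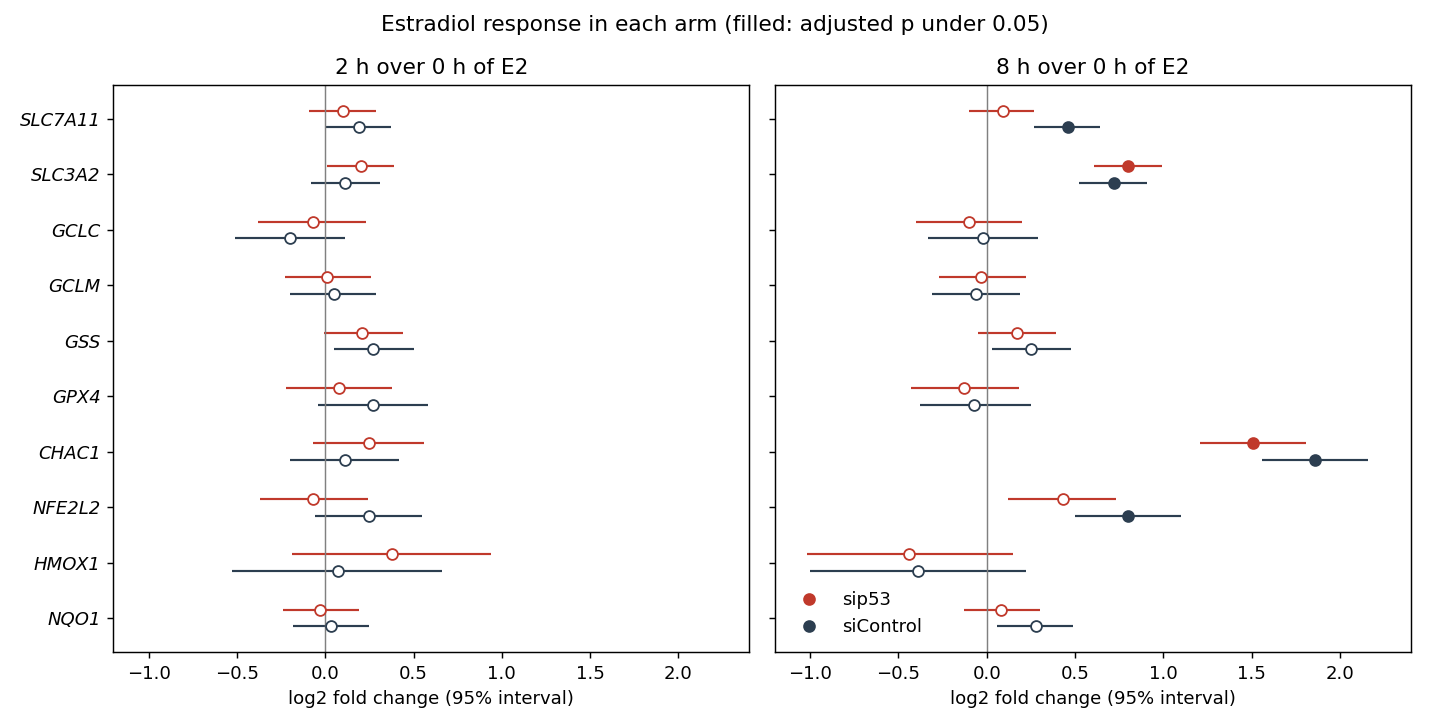
Log2 fold change (x axes, points with 95% intervals) for the 10 genes (rows), in sip53 (red) and siControl (dark) cells. The left panel is 2 h over 0 h of E2 and the right panel 8 h over 0 h of E2. Filled points passed an adjusted p of 0.05. At 8 h, CHAC1 lies at 1.51 in sip53 and 1.86 in siControl cells.

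Of the genes of related pathways, the NRF2 targets were measured as a list of 32, of which 28 were tested, without the 10 genes above. At 0, 2 and 8 h, 6, 8 and 4 were higher and 1 was lower in sip53 cells, with median log2 fold changes of 0.20, 0.19 and 0.15. In all, 25%, 32.1% and 17.9% of the 28 were called, against 9.12%, 12.2% and 8.96% of all genes (3.98%, 4.42% and 2.81% higher). Leaving out 1 library gave 2 to 9, 4 to 9 and 3 to 5 called in all. FTH1, the ferritin heavy chain, was higher at all 3 times (0.43, 0.40 and 0.34), with the reservation that ferritin reads can be shared with pseudogenes. The 1 lower gene was TXNRD1, the cytosolic thioredoxin reductase, at log2 fold changes of -0.84 ± 0.17, -1.0 ± 0.17 and -1.06 ± 0.17 (SE, edgeR adjusted p-values 0.00469, 0.000874 and 0.000634). At 8 h TXNRD1 averaged 54.9 ± 4.21 CPM in sip53 cells and 114 ± 10.1 CPM in siControl cells (SD, n = 3 each). With the length and composition trend removed, the called NRF2 targets numbered 4 at 0 h and 5 at 2 h. Among 10 regulators and partners of NRF2, 0, 1 and 1 were called at 0, 2 and 8 h (0%, 10% and 10%). The 1 was NFE2L1, a relative of NRF2, at -0.38 and -0.41. Leaving out a single library could end the calls of NFE2L1 and that of FTH1 at 8 h. KEAP1, the NRF2 adaptor for degradation, had log2 fold changes of 0.25, 0.10 and 0.03 and did not pass.

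In the thioredoxin and peroxide removal list, 3, 5 and 2 of 15 genes were higher and 1, 2 and 2 lower in sip53 cells at 0, 2 and 8 h (medians 0.30, 0.23 and 0.17). In all, 26.7%, 46.7% and 26.7% were called, against 9.12%, 12.2% and 8.96% of all genes (3.98%, 4.42% and 2.81% higher). Leaving out 1 library gave 2 to 9, 3 to 7 and 3 to 4 called in all. Among the higher ones were the peroxiredoxins PRDX6, at log2 fold changes of 0.59, 0.56 and 0.40, and PRDX2, at 0.46, 0.52 and 0.63. TXNIP, an inhibitor of thioredoxin, was lower at 2 and 8 h (-0.64 ± 0.17 and -1.24 ± 0.16, SE, edgeR adjusted p-values 0.0165 and 0.000105). Leaving out a single library could end the calls of PRDX6 at 8 h, PRDX2 at 0 h and TXNIP at 2 h. Of 31 tested genes of glutathione use and turnover, 5, 3 and 2 were higher and 0 lower (16.1%, 9.68% and 6.45% called, medians 0.16, 0.21 and 0.19). Leaving out 1 library gave 1 to 9, 0 to 3 and 0 to 3 called. MGST1, a membrane-bound glutathione transferase, was higher at 0 h (0.56 ± 0.10, SE, edgeR adjusted p = 0.00242), and all 3 calls of GSTP1 were lost with the length and composition trend removed. Of 13 tested genes of cysteine and glutamate supply, 1, 1 and 2 were higher and 0 lower (7.69%, 7.69% and 15.4% called, medians 0.01, 0.02 and 0.02). Here, leaving out 1 library gave 0 to 2, 0 to 1 and 0 to 3 called. The median over all genes was 0.00 at 0 and 2 h and 0.01 at 8 h.

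In the list for ferroptosis, iron and lipid peroxidation, 5, 4 and 3 of 27 tested genes were higher and 1 was lower at each time (medians 0.13, 0.18 and 0.16). In all, 22.2%, 18.5% and 14.8% were called, against 9.12%, 12.2% and 8.96% of all genes (3.98%, 4.42% and 2.81% higher). Leaving out 1 library gave 2 to 6, 2 to 7 and 1 to 4 called in all, and a fit of only the groups compared gave 1 at 0 h. TFRC, the transferrin receptor, was higher at log2 fold changes of 0.43, 0.33 and 0.35, and leaving out a single library could end each of these calls. The lower one was IREB2, an iron-sensing RNA-binding protein, at -0.81 ± 0.10, -0.71 ± 0.10 and -0.93 ± 0.10 (SE, edgeR adjusted p-values 7.53e-05, 0.000204 and 1.19e-05). IREB2 averaged 43.9 ± 3.29 CPM in sip53 cells and 83.3 ± 3.54 CPM in siControl cells at 8 h (SD, n = 3 each). Its calls were kept in every alternative, with log2 fold changes as small in size as -0.66, -0.48 and -0.74 at 0, 2 and 8 h. FTH1, FTL, TXNRD1 and some others sit in more than 1 list, so the lists are not independent of each other.

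The ATF4 branch list, of which SLC7A11, SLC3A2 and CHAC1 would also be part, had 18 tested genes apart from them. In sip53 cells 0, 0 and 1 were higher and 2, 1 and 4 lower at 0, 2 and 8 h, with medians of -0.05, 0.00 and -0.21. In all, 11.1%, 5.56% and 27.8% were called, against 9.12%, 12.2% and 8.96% of all genes (5.14%, 7.79% and 6.14% lower). Without 1 library, 0 to 2, 0 to 2 and 2 to 4 were called in all. The 4 lower genes at 8 h were SESN2 at -0.77 ± 0.11, PPP1R15A at -0.70 ± 0.10, ATF3 at -0.58 and DDIT3 at -0.54 (log2, SE where given). Leaving out a single library could end the calls of ATF3 and DDIT3. SESN2 and DDIT3 are stress-induced genes, and PPP1R15A ends the translation block of the stress response. ATF4 itself had log2 fold changes of 0.04, 0.22 and 0.04 and did not pass. From 0 to 8 h of E2, 5 of the 18 were higher in sip53 cells and 7 in siControl cells, and 0 were lower in either arm (medians 0.25 and 0.46, beside -0.01 and 0.00 over all genes). Those were 27.8% and 38.9% of the list, against 1.55% and 1.78% of all genes called higher. DDIT4, an inhibitor of mTORC1 signalling, was higher by 1.43 ± 0.13 in sip53 cells and 1.57 ± 0.13 in siControl cells (log2, SE, edgeR adjusted p-values 3.29e-07 and 1.38e-07). SESN2 was higher by 1.06 ± 0.12 in sip53 cells and 1.35 ± 0.11 in siControl cells, and DDIT3 by 0.92 ± 0.13 in sip53 cells and 1.16 ± 0.12 in siControl cells. By contrast, 0 of the 28 NRF2 targets were higher at 8 h in either arm and 1, SQSTM1, was lower (log2 fold changes -0.63 in sip53 and -0.64 in siControl cells). That was 3.57% of the 28 in each arm, against 1.18% of all genes lower in sip53 cells and 0.823% in siControl cells.

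**Figure D5:**
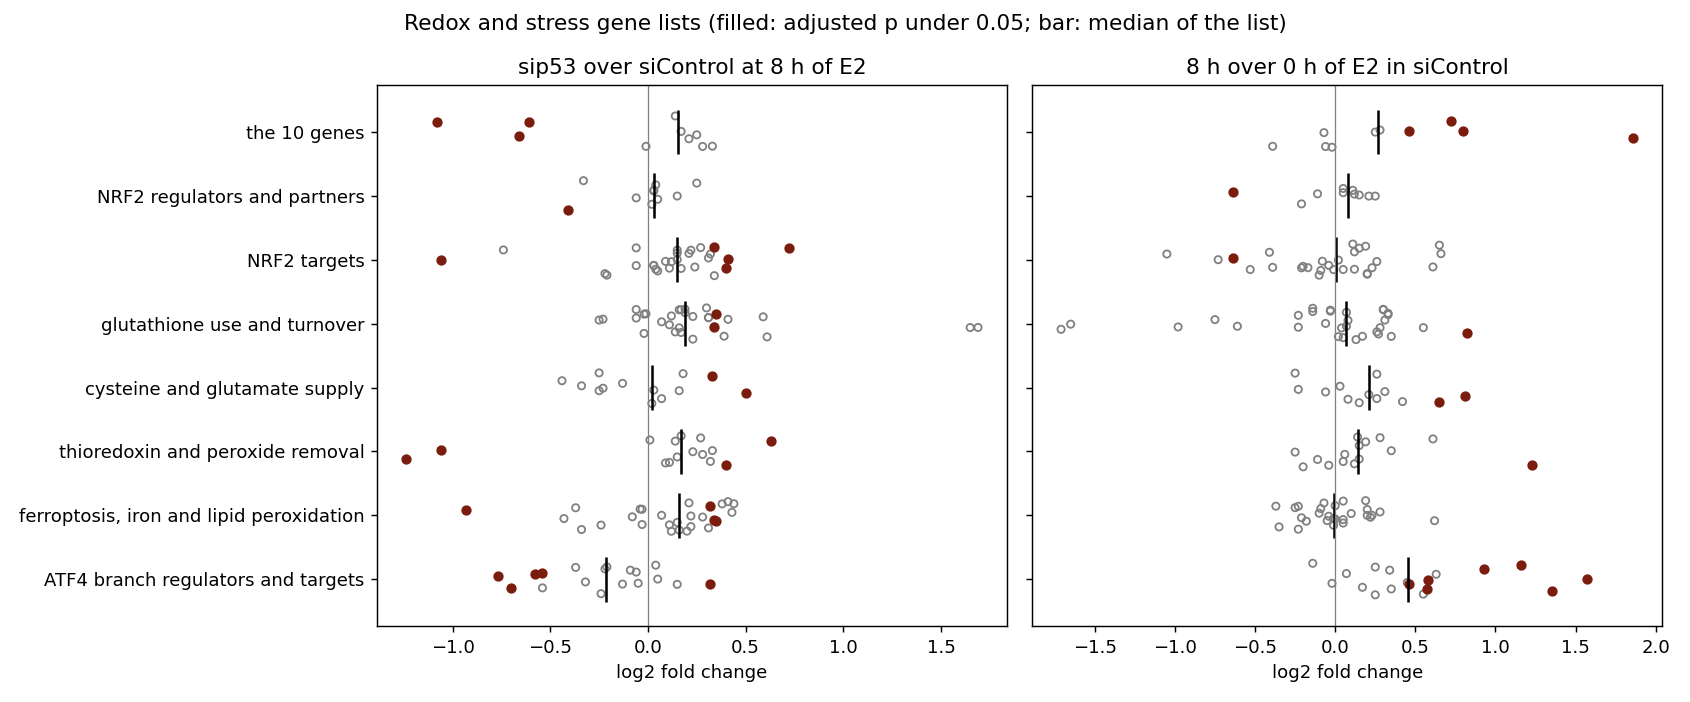
Log2 fold changes (x axes) of single genes (points) in the 10 genes and 7 related lists (rows), for sip53 over siControl at 8 h of E2 (left) and 8 h over 0 h of E2 in siControl cells (right). Filled points passed an adjusted p of 0.05 and vertical bars are list medians. The median of the ATF4 branch list lies at -0.21 on the left and 0.46 on the right.

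The genes whose pattern over the 6 groups was most like that of SLC7A11 were found among 9647 genes with an average log2 CPM of at least 3, by the root mean square difference of group means centred on each gene's own average. The nearest 5 were SCEL at 0.0749, GOLGA5 at 0.0788, LYSMD3 at 0.0793, IFT74 at 0.0922 and C18orf32 at 0.112 (log2 units, over 6 groups). SCEL had log2 fold changes of sip53 over siControl of -0.76, -0.88 and -0.99 at 0, 2 and 8 h, and GOLGA5 of -0.88, -0.92 and -0.98. These 5 genes were picked for their likeness, so their values are a description. HMOX1 was below the level required. Of the other 8 genes, NFE2L2 was the nearest to SLC7A11, at rank 464 with a difference of 0.249.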

How the data were processed

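RNA was sequenced from the 3' end of transcripts (QuantSeq 3' mRNA-Seq FWD, per the labels' protocols) in 18 samples. The values are expected counts from RSEM, deposited by the authors as 1 table. Per the submitters' processing notes the tools were RSEM 1.3.3, Bowtie2, cutadapt and MultiQC with genome build hg19, and no annotation is named in the sources used here. A count from 3' reads does not grow with transcript length. The expected counts were whole numbers as deposited, so rounding before testing changed none. Rows are sets of Ensembl transcripts, named here through GENCODE v29 on GRCh38. Rows without a gene name held 0.635% of counts.

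Genes were tested with edgeR 4.0.16 in R 4.3.3: filterByExpr (minimum count 10), TMM scaling and a quasi-likelihood fit of all 18 samples with 1 coefficient per group, for 11 contrasts. A gene was called at a Benjamini-Hochberg adjusted p under 0.05 over 15318 genes. Levels are TMM-normalised CPM. SE and 95% intervals come from that fit. The biological coefficient of variation was 15.2%, so spread between samples, more than counting, set the precision of all named genes but HMOX1, whose counts were low. Whether the 3 samples of a group were separate cultures is not stated in the labels, so the spread behind each p-value may be technical. Within groups, replicates differed beyond counting noise (chi-square per degree of freedom 4.04 to 22.9 over genes with at least 20 counts). The scripts were tested on simulated data.

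The 10 genes and the lists were chosen with earlier results of these data known. Text names all 10, RPS27L and CDKN1A, up to 4 called genes per list, direction and comparison by smallest adjusted p, and the 5 genes nearest to SLC7A11. KEAP1 and ATF4 were added outside that rule, after their values were seen. Alternatives were DESeq2 1.42.0, upper-quartile scaling, no low-count filter, a fit of only the groups compared, the replicate number as a block, leaving out each library, and, chosen after seeing the data, removal of a length and composition trend, which had values for 97.3% of genes. Each list was described by counts and medians, without a list test. Results of the gene targeted by the siRNA and of some single list genes are not reported here.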

Additional observations from a re-analysis of the deposited data

How the results depend on the processing

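No called result on the 10 genes changed sign in any alternative that was run. Of 18 calls on them, alternatives gave 234 values, of which 216 kept the call and 18 lost it. Of 92 comparisons not called, 23 of 1316 values passed and 65 changed sign, among them GPX4 at 2 h with the length and composition trend removed. The SLC7A11 calls between sip53 and siControl cells were kept in all of them. The number of the 10 called at 8 h between sip53 and siControl was 3, and 5 with DESeq2 or upper-quartile scaling. At 0 h it was 2, and 1 in the fit of only the groups compared. For E2 8 h against 2 h in siControl cells it was 2, and 4 with DESeq2. Leaving out 1 library gave 1 to 3 called at 0 h, 1 to 3 at 2 h and 1 to 3 at 8 h between the arms. Whether the replicate numbers pair the samples is not said in the labels. Same-numbered samples had correlations of -0.145 to 0.209 over 9 comparisons and in 0 of them were all 3 above 0.1. These correlations are of deviations from means of 3 samples, so they cannot exclude shared cultures. With the replicate number as a block, 4 of the 10 were called at 8 h, and all-gene counts of 1448, 1868 and 1419 at 0, 2 and 8 h stood beside 1397, 1871 and 1372 without it. Over all genes, the fit of only the groups compared called 284 at 0 h, and leaving out 1 library gave 289 to 2043, 821 to 1923 and 399 to 1466 at 0, 2 and 8 h. The E2 8 h against 0 h calls were 399 in siControl cells (647 with DESeq2, 789 without the low-count filter, 131 with only the groups compared) and 419 in sip53 cells (701 without the filter, 270 with only the groups compared). Leaving out 1 library gave 213 to 343 for 8 h against 0 h in sip53 cells and 180 to 739 in siControl cells. The 8 h against 2 h calls were 211 in sip53 cells (386 with DESeq2, 403 without the filter, 375 with only the groups compared) and 157 in siControl cells (333 with DESeq2, 313 without the filter), and 105 to 154 in sip53 and 81 to 105 in siControl cells without 1 library. The 2 h against 0 h calls were 47 in sip53 cells (93 with DESeq2, 204 without the filter) and 35 in siControl cells (119 with DESeq2, 285 without the filter, 13 with only the groups compared), and 30 to 42 in sip53 and 17 to 144 in siControl cells without 1 library. Called NRF2 targets numbered 7 at 0 h, and 1 with only the groups compared. At 8 h they numbered 5, and 8 with DESeq2. The share of calls at 8 h that were higher in sip53 cells was 31.4%, and 42.4% with upper-quartile scaling and 42.5% with the length and composition trend removed. At 0 h it was 43.7%, and 23.9% with only the groups compared. The cause of these shifts was not tested. With 3 samples a group, HMOX1 at 27 to 82 counts per sample was the least precise of the 10.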
